A study of Saccharomyces cerevisiae with 11 samples.

Results

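The comparison of *rna15-1* cells with wild-type cells comprised 8 of the 11 arrays of the series, 3 of *rna15-1* and 5 of the wild type, and the 5449 genes of *Saccharomyces cerevisiae* that these arrays measured. The members were all genes with a *S. cerevisiae* probe set, each represented by its brightest one, and 259 of them lie on chromosome V (systematic names YEL and YER). The deposited genotype of the mutant strain, rna15-1 W, was MATa with the *rna15-1* mutation, the auxotrophic alleles *trp1-1*, *ade2-1* and *ura3-1*, and auxotrophic alleles of *HIS3* and *LEU2*. The wild type, W303-1B, was given the same markers without *rna15-1*, so that every array came from cells carrying these auxotrophic alleles. All cultures were grown to mid-log phase at 30°C in rich glucose medium, and biotin-labelled cRNA from total RNA was hybridised to Affymetrix yeast arrays. Each group is 1 strain, whose arrays are labelled as biological replicates. The p-values below therefore rest on the spread between cultures within a strain, estimated jointly from all 11 arrays, those of the *rna14-1* strain included. Values are log2 intensities, on which a difference of 1 is a 2-fold change, and fold changes are *rna15-1* minus wild type.

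Rna15 is the RNA-binding subunit of cleavage factor IA, which together with Hrp1 forms cleavage factor I (CFI). CFI recognises signals near the end of nascent transcripts and, with the cleavage and polyadenylation factor, cuts the pre-mRNA, allows a poly(A) tail to be added and helps RNA polymerase II to terminate. Mutations in this complex can leave transcripts unprocessed or let polymerases read into neighbouring genes, and an expression array with a few probes per gene reports only the summed signal of RNAs that match those probes.

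The *rna15-1* arrays did not form a uniform group. Across the 5449 genes replicates 1 and 2 correlated with r = 0.997, whereas replicate 3 correlated with r = 0.965 with replicate 1 and r = 0.964 with replicate 2. Its correlation with the wild-type arrays was 0.843 to 0.849, against 0.893 to 0.905 for replicates 1 and 2. With the *rna14-1* arrays of the series it correlated at 0.939 to 0.946, against 0.901 to 0.918 for replicates 1 and 2. Wild-type replicates 1 and 2 correlated at 0.994, replicates 3 to 5 at 0.991 to 0.996, and arrays of these 2 sets with each other at 0.981 to 0.989. These are correlations across genes, which share the brightness of their probes and are not independent replicates. As background, each array's 95th percentile over 1746 probe sets without a budding yeast gene was used, and 98.7% to 99.5% of the genes exceeded it on the 8 arrays. For a part of the results that rest on replicate 3, values without it are given as well.

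The mating type in the labels was set against the mating-type genes. In haploid yeast, MATa cells make a-factor and the receptor for alpha-factor, and MATα cells make alpha-factor and the receptor for a-factor. The alpha-factor gene *MF(ALPHA)1* had log2 intensities of 14.05, 14.05 and 14.11 on the *rna15-1* arrays and 13.19, 13.13, 13.44, 13.45 and 13.44 on the wild-type arrays. For the a-factor receptor gene *STE3* they were 12.997, 13.08 and 12.96 in *rna15-1* and 12.04, 12.02, 12.30, 12.24 and 12.17 in the wild type. Thus 2 defining genes of MATα cells were expressed on every array, and *MF(ALPHA)2* and *SAG1* lay at 12.05 to 14.21 as well. The 4 listed alpha-specific genes rose (adjusted p under 0.01), beside 28.2% of all genes. *MF(ALPHA)2* changed most, by 1.70 ± 0.17 (log2 fold change ± standard error of limma's fit, adjusted p = 1.1e-05). *HMRA1*, whose sequence is also that of the a1 gene of a MATa locus, was not above background on any of the 8 arrays. The probe set of *HMLALPHA1*, which cannot tell the silent copy from an identical copy at a MATα locus, lay at 12.21, 12.25 and 12.31 in *rna15-1* and 10.62, 10.71, 10.78, 10.77 and 10.75 in the wild type. These values go against the MATa label for both strains, which are therefore named here by their strain and allele only. *HMRA1* and *HMLALPHA1* were looked at after the other values had been seen. *HMLALPHA1* also lies in a stretch of chromosome III, described below, that was higher in *rna15-1* as a whole. The medians of that stretch were 1.15, 1.18 and 1.18, beside which the log2 fold change of *HMLALPHA1*, 1.53, is to be read.

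Genes that MATa cells normally express were nevertheless higher in *rna15-1*. *AGA2*, the adhesion subunit of a-agglutinin, had 10.93, 10.45 and 11.78 on the *rna15-1* arrays and 6.06, 6.21, 6.94, 6.97 and 5.79 on the wild-type arrays. For *MFA1*, an a-factor precursor gene, the values were 11.24, 10.84 and 12.19 in *rna15-1* and 7.27, 7.30, 7.77, 7.82 and 7.71 in the wild type. Both were highest on replicate 3. Neither gene overlapped between groups, but both are among the 15 largest increases, which were chosen for this. Of all genes 32.6% were higher on every *rna15-1* array than on every wild-type array. Of 8 genes listed as a-specific 7 rose and none fell, and 5 were called up, by the criteria given below. Of all genes 28.2% rose, 24.7% fell and 6.53% were called up. The 7 also included *ASG7* (2.66 ± 0.25), the a-factor gene *MFA2* (2.32 ± 0.32), the alpha-factor receptor gene *STE2* (1.90 ± 0.19), the a-factor exporter gene *STE6* (1.36 ± 0.22) and the alpha-factor protease gene *BAR1* (0.90 ± 0.20). Without replicate 3 *BAR1* no longer passed (adjusted p = 0.011). The eighth, *AFB1*, stood in this list but is expressed by alpha cells, where it makes the a-factor barrier. It lay at 13.09 to 13.37 on the 8 arrays, with a log2 fold change of 0.11 ± 0.07 (adjusted p = 0.16), so that counted with the alpha-specific genes 4 of 5 rose. In a bulk culture, more cells that express a gene and more RNA per cell cannot be told apart.

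Genes were called up or down at the thresholds of the study's methods, which require an adjusted p under 0.01, a change larger than 2-fold, a B-statistic above 2 and a mean log2 intensity (A) above 7. Rose and fell stand for the adjusted p alone. In *rna15-1* 356 genes (6.53%) were called up and 290 (5.32%) down, while 1539 (28.2%) rose and 1348 (24.7%) fell. Without regard to any test, 1778 genes (32.6%) were higher on every *rna15-1* array than on every wild-type array, and 1583 (29.1%) were lower. Leaving out replicate 3 gave 366 genes up and 285 down, of which 305 and 242 were called with all arrays. Among the genes gained in this way, 36 of the 61 up genes were on chromosome V.

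Genes of mating and cell fusion led the increases. *FIG1*, a membrane protein gene needed for calcium influx during mating, had log2 intensities of 12.01, 12.07 and 12.61 on the *rna15-1* arrays and 4.92, 4.25, 6.64, 6.27 and 4.63 on the wild-type arrays. It changed by 6.89 ± 0.49 (adjusted p = 9.5e-07), with the wild type above background on 4 of 5 arrays. *PRM6*, which encodes a pheromone-regulated membrane protein, had 11.55, 11.40 and 12.43 in *rna15-1* and 4.47, 4.69, 5.44, 5.94 and 4.69 in the wild type, a change of 6.75 ± 0.34. Both were chosen among genes whose *rna15-1* arrays all exceeded every wild-type array, and replicate 3 was the highest for both. *PRM3*, a gene of nuclear fusion, rose by 3.74 ± 0.17, *PRM1*, of plasma membrane fusion, by 3.52 ± 0.21, and *PRM2* by 3.61 ± 0.21. *KAR4*, a transcription factor gene of karyogamy on the left arm of chromosome III, rose by 3.56 ± 0.14. The sporulation gene *SPO19* was less even, with 8.38, 8.49 and 10.40 on the *rna15-1* arrays and 4.88, 4.47, 6.13, 6.21 and 4.17 on the wild-type arrays. Its change of 3.92 ± 0.56 was 3.26 without replicate 3. Other genes among the 15 largest increases were the stress gene *DDR2* (3.51 ± 0.21), the pyruvate carrier gene *MPC3* (3.26 ± 0.14), *LEE1* and *YDR042C*, both of unknown function, and the RNA-binding protein gene *RNP1* (3.40 ± 0.41, and 2.81 without replicate 3). *YGR109W-B*, a gene of the retrotransposon Ty3, rose by 3.57 ± 0.28, and its probes may match other copies of the element.

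**Figure D1:**
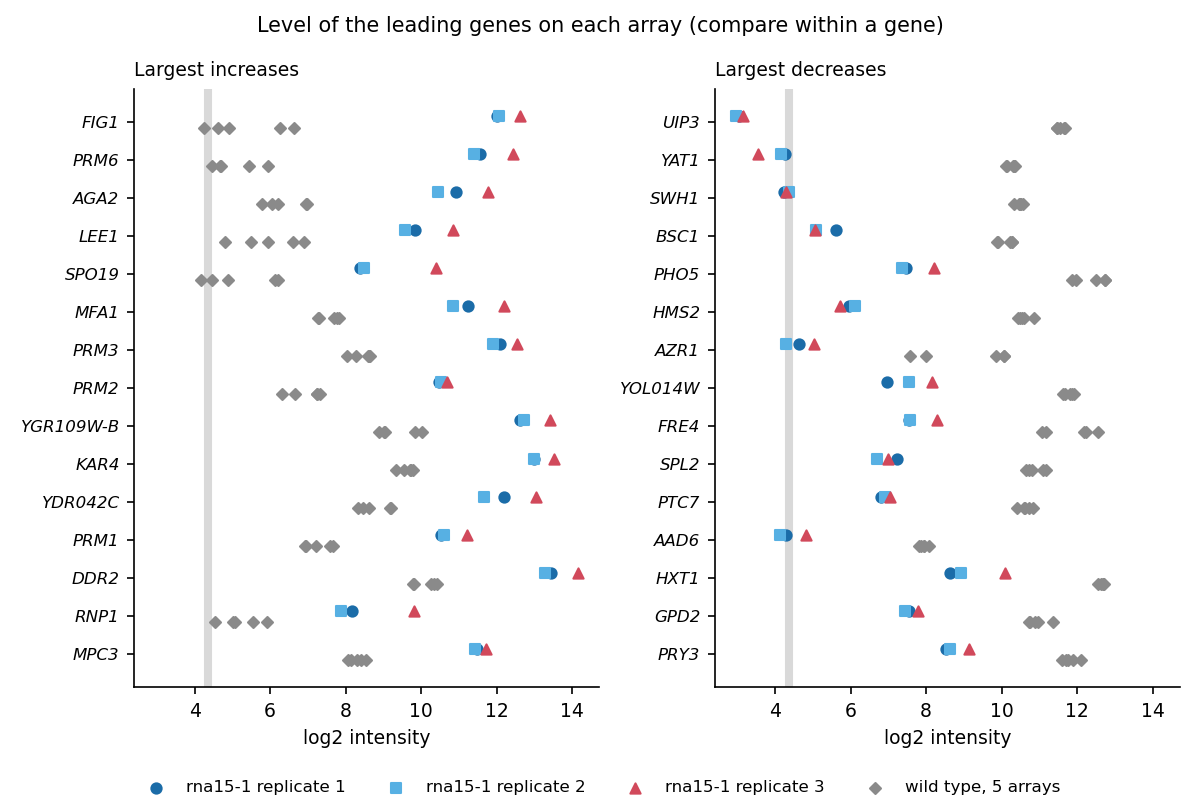
Log2 intensity (horizontal axis) of the 15 genes with the largest increase (left) and the 15 with the largest decrease (right) on each array, with *rna15-1* replicates above and wild-type arrays (grey) below each gene's line and the range of the arrays' background shaded. The genes were chosen for not overlapping between groups, and replicate 3 lies above replicates 1 and 2 for all 15 increases.

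The largest decreases were those of *UIP3*, *YAT1* and *SWH1*, which lie close together on chromosome I and are given with that chromosome. Of the others, *BSC1*, identified for readthrough of its stop codon, had 5.61, 5.08 and 5.05 on the *rna15-1* arrays and 9.88, 9.90, 10.21, 10.28 and 10.26 on the wild-type arrays, and fell by 4.86 ± 0.15. The heat shock factor relative *HMS2* had 5.96, 6.10 and 5.72 in *rna15-1* and 10.59, 10.85, 10.49, 10.53 and 10.44 in the wild type. The groups were far apart for both, and replicate 3 differed from the mean of the other replicates by -0.30 for *BSC1* and -0.31 for *HMS2*. The protein phosphatase gene *PTC7* fell by 3.72 ± 0.11, the aryl alcohol dehydrogenase gene *AAD6*, above background on 1 of 3 *rna15-1* arrays, had a log2 fold change of -3.52 ± 0.14, and *GPD2*, the glycerol 3-phosphate dehydrogenase gene of redox balance, fell by 3.34 ± 0.14. *HXT1*, the low-affinity glucose transporter gene, was less even, at 8.62, 8.93 and 10.08 on the *rna15-1* arrays and 12.68, 12.56, 12.70, 12.63 and 12.70 on the wild-type arrays. The drug transporter gene *AZR1* (log2 fold change -4.46 ± 0.56) was above background on 2 of 3 *rna15-1* arrays, and on wild-type replicates 1 and 2 it was lower, at 7.99 and 7.56, than on the other wild-type arrays, at 9.84 to 10.07.

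Genes of chromosome V stood apart as a whole on replicates 1 and 2 of *rna15-1*. As a difference from the wild-type mean, the median over the 259 genes was 0.72 on replicate 1, 0.67 on replicate 2 and 0.04 on replicate 3, against -0.02 to 0.03 on the 5 wild-type arrays. On a linear scale these medians of the *rna15-1* arrays were 1.65-fold, 1.60-fold and 1.03-fold. The genes of all other chromosomes together had medians of 0.00, 0.00 and 0.02 on the same arrays. The other chromosome with the highest median was III on all 3 replicates, with 0.17, 0.15 and 0.24, followed by VI and XI, which lay between 0.11 and 0.18 on every replicate. On replicate 1, 207 genes of chromosome V (79.9%) exceeded all 5 wild-type arrays, and on replicate 2 this was so for 209 (80.7%), against 39.6% and 38.8% of the other genes. On replicate 3 it was 118 (45.6%), against 42.5% of the other genes. The arrays of *rna14-1* had chromosome V medians of -0.02, 0.04 and 0.03. These values are given without a test, since chromosome V and replicate 3 were singled out with results of these arrays known. The number of copies of chromosome V in the cultures was not tested.

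**Figure D2:**
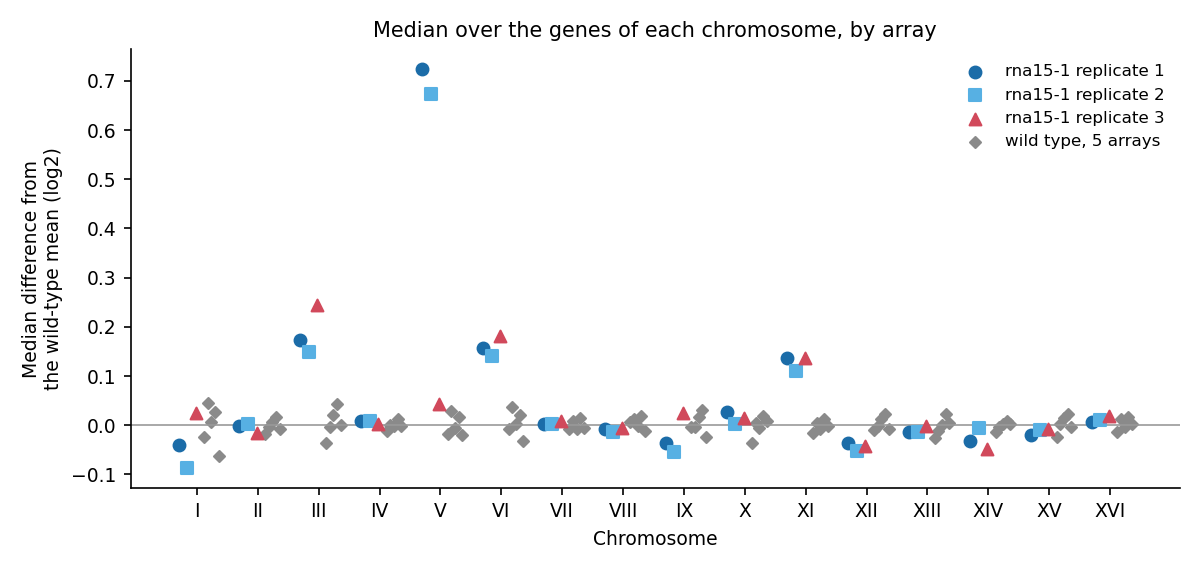
Median difference from the wild-type mean (log2, vertical axis) over the genes of each chromosome, with the 3 *rna15-1* replicates to the left and the 5 wild-type arrays (grey) to the right of each position. Chromosome V reaches 0.72 and 0.67 on replicates 1 and 2 and 0.04 on replicate 3.

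The shift of chromosome V was spread over its whole length. The left arm (68 genes) had medians of 0.72, 0.60 and -0.01 on replicates 1, 2 and 3, and the right arm (191 genes) 0.72, 0.69 and 0.05. In 13 consecutive runs of about 20 genes, the lowest run median was 0.48 on replicate 1 and 0.47 on replicate 2, and the highest was 0.97 and 0.92. On replicate 3 the runs went between -0.23 and 0.41. Of 259 runs on the other chromosomes, 4 on replicate 1, 5 on replicate 2 and 15 on replicate 3 exceeded 0.4, and the highest, on chromosome III, reached 1.33, 1.30 and 1.36, above every run of chromosome V. The shift was larger among dim genes, but it was present at every level. When all genes were divided by their wild-type mean into 3 classes of equal size, the chromosome V medians on replicate 1 were 1.25 in the dim, 0.73 in the middle and 0.46 in the bright class, against 0.26, -0.02 and -0.12 for the other chromosomes. On replicate 3 they were 0.66, -0.15 and -0.15, against 0.42, -0.03 and -0.17.

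**Figure D3:**
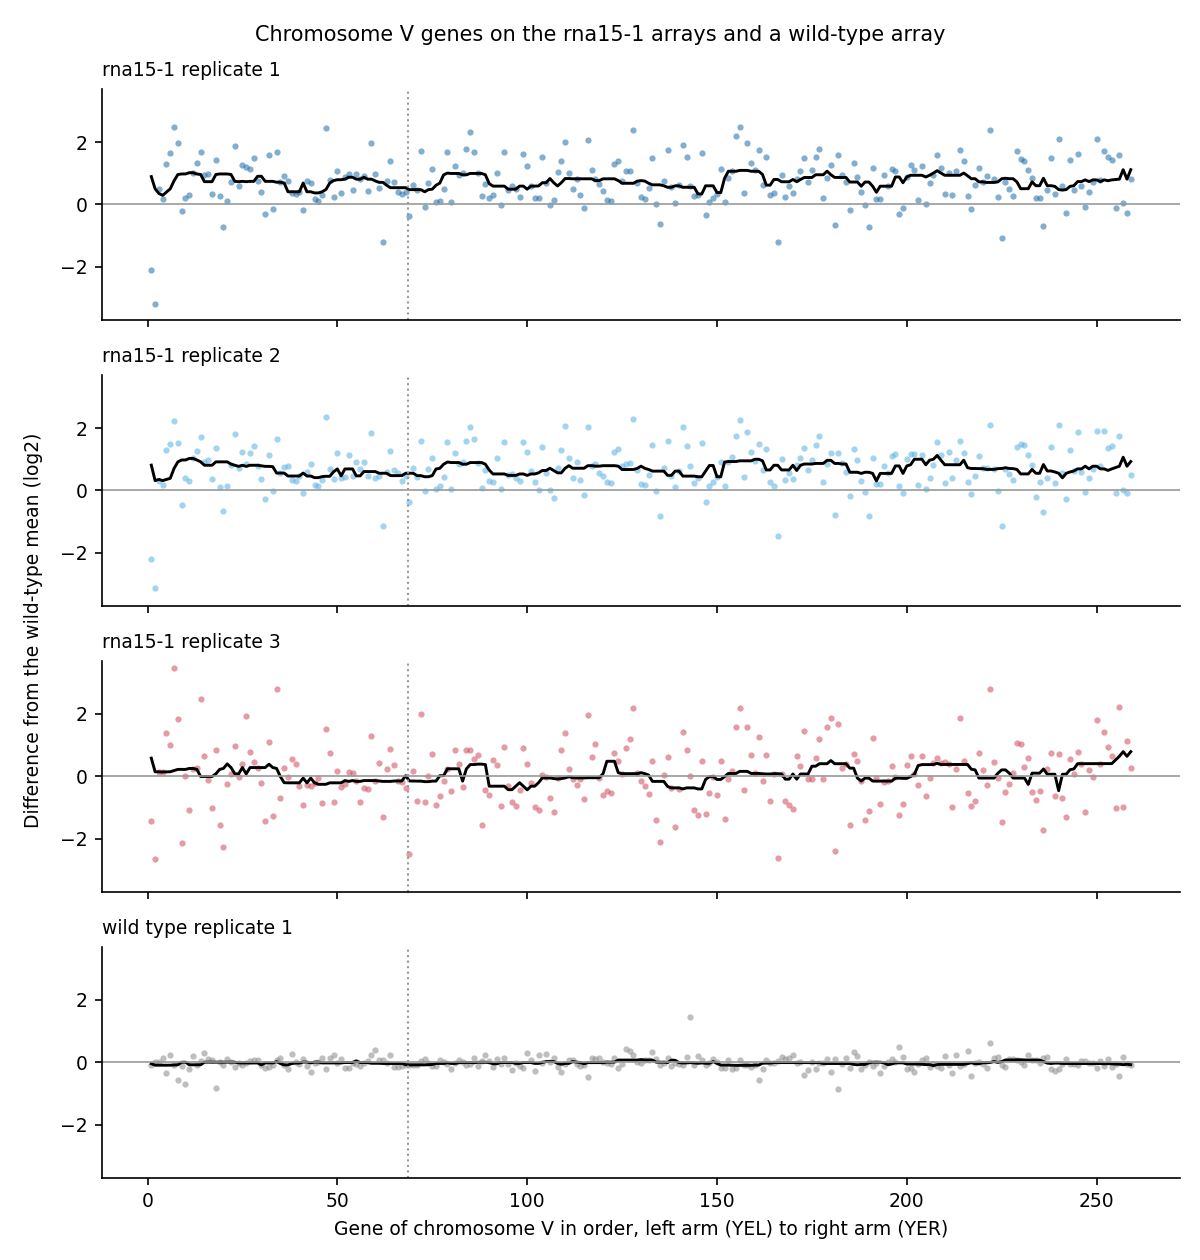
Difference from the wild-type mean (log2, vertical axis) of each chromosome V gene in its order along the chromosome, for the 3 *rna15-1* arrays and, at the bottom, a wild-type array, with the running median of 15 genes as a black line and the border of the arms dotted. The running median stays above 0 along the whole chromosome on replicates 1 and 2 and lies around 0 on replicate 3 and on the wild-type array.

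The calls on chromosome V depended on replicate 3. With all arrays 41 of its genes (15.8%) were called up and 4 (1.54%) down, against 6.07% and 5.51% of the other genes, and without replicate 3 it was 73 up and 5 down. By the adjusted p alone 119 (45.9%) rose and 11 (4.25%) fell, and 178 rose and 13 fell without replicate 3. With the median of chromosome V subtracted on each array, which was chosen after seeing the data, 12 genes were called up and 13 down, shares of 4.63% and 5.02%, and 74 rose and 79 fell. Among the called genes, 10 of the up genes and 4 of the down genes were also called without the subtraction. The 10 were *AFG1*, *RIP1*, *UBC8*, *MEI4*, *ICL1*, *YER079W*, *SER3*, *AST2*, *MAG1* and *DMC1*, listed after their values were seen.

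Single genes of chromosome V took different courses on replicate 3. *RIP1*, the Rieske iron-sulfur subunit gene of the respiratory chain, had 13.50, 13.41 and 12.58 on the *rna15-1* arrays and 10.83, 10.73, 11.16, 11.31 and 11.24 on the wild-type arrays, and rose by 2.11 ± 0.21. *CYC7*, which encodes the minor cytochrome c, went the other way on replicate 3, with 10.91, 10.87 and 12.04 in *rna15-1* and 9.31, 9.20, 9.13, 9.22 and 9.26 in the wild type. The meiotic recombination gene *MEI4* was nearly the same on all replicates, at 8.48, 8.47 and 8.37 in *rna15-1*, against 5.95, 6.45, 6.43, 6.58 and 6.69 in the wild type. These genes were chosen among called genes without overlap between groups, so their separation from the wild type is not a result. The cell wall protein gene *SPI1* rose by 2.43 ± 0.26, *YER079W*, of unknown function, by 2.32 ± 0.13, the mitotic kinesin gene *CIN8* by 1.95 ± 0.19, the meiotic recombinase gene *DMC1* by 1.94 ± 0.14 and the porphyrin transporter gene *PUG1* by 1.86 ± 0.18. Each of these was also called up without replicate 3, which leaves the replicates on which the chromosome as a whole was higher. With the median of chromosome V subtracted, *YER079W* and *DMC1* were called up, and *SPI1*, *CIN8*, *PUG1* and *CYC7* were not.
Against the direction of the chromosome, *PET122*, a translational activator gene of mitochondrial *COX3* mRNA, had 8.06, 7.98 and 7.65 in *rna15-1* and 9.05, 9.17, 9.19, 9.13 and 9.11 in the wild type, and fell by 1.23 ± 0.10. *MIT1*, a regulator gene of pseudohyphal growth, fell by 1.21 ± 0.07. The other called decreases were *YEL076C* and *YEL076C-A* at the left end, whose probe sets are marked as sharing sequence with other genes. The marker gene *URA3*, which lies on chromosome V and carries the *ura3-1* allele in both strains, had 12.89, 13.01 and 12.01 in *rna15-1* and 11.81, 11.75, 11.78, 11.87 and 11.92 in the wild type. It was above every wild-type array on each replicate, but only narrowly on replicate 3, and was called up only without that replicate.

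A shorter stretch of chromosome III had nearly the same median on all 3 replicates. The 43 measured genes on the left arm of chromosome III from *GEX1* to *YCL021W-A*, the gene before *LEU2*, had median differences of 1.15, 1.18 and 1.18 on *rna15-1* replicates 1, 2 and 3, and -0.04 to 0.06 on the wild-type arrays. The 105 genes from *LEU2* onward had 0.05, 0.01 and 0.00. Of the 43 genes 20 (46.5%) were called up and none down, 34 (79.1%) rose and 2 fell, and the remaining 7 did not pass. Over all genes 6.53% were called up and 28.2% rose, and from *LEU2* onward 7.62% and 23.8%. *HIS4*, a histidine biosynthesis gene within the stretch, had 13.40, 13.40 and 13.30 in *rna15-1* and 11.98, 11.92, 11.82, 11.86 and 11.94 in the wild type. *STE50*, an adaptor gene of the pheromone pathway, had 10.94, 10.89 and 10.85, against 9.40, 9.33, 9.14, 9.35 and 9.13. In contrast *LEU2* had 11.31, 11.36 and 11.43, against 12.20, 12.24, 11.82, 11.86 and 11.85, and fell by 0.62 ± 0.11. The pheromone-induced genes *KAR4* (3.56 ± 0.14) and *FUS1* (2.83 ± 0.15) and the glucokinase gene *GLK1* (1.63 ± 0.14) lie in this stretch, and all 3 changed by more than its median. *KAR4* and *GLK1* were named for the size of their change, so their excess over the median is in part set by the choice. On the *rna14-1* arrays the stretch had medians of 0.25, 0.35 and 0.38. The borders were chosen after the values were seen, and no test was made.
On the right arm of chromosome I, the neighbouring genes went different ways. *UIP3*, *PRM9*, *YAT1* and the flocculin gene *FLO1* were above background on none of the *rna15-1* arrays. *UIP3*, which encodes a membrane protein of the DUP240 family, had 3.03, 2.96 and 3.14 in *rna15-1* and 11.65, 11.54, 11.68, 11.46 and 11.48 in the wild type, and was at least 153-fold lower (adjusted p = 6.6e-14). The carnitine acetyltransferase gene *YAT1* was at least 61.6-fold lower and *PRM9*, of the same family as *UIP3*, at least 14.3-fold. *SWH1*, an oxysterol-binding protein gene close by, had 4.24, 4.37 and 4.27 in *rna15-1*, above background on 2 of 3 arrays, and 10.56, 10.53, 10.46, 10.49 and 10.33 in the wild type. *MST28*, between *PRM9* and *YAT1*, was not lower, with 9.74, 9.74 and 11.24 in *rna15-1* and 9.22, 9.56, 9.81, 9.74 and 9.48 in the wild type (log2 fold change 0.68, adjusted p = 0.067). *PAU7* (2.13), *YAR066W* (2.28) and *YAR068W* (2.07), which flank these genes, rose, *PAU7* being highest and the other genes lowest on replicate 3. *YAR064W* (-1.86), beside *YAR066W* and above background on 2 of 3 *rna15-1* arrays, fell. *PHO11* (-3.84), beside *YAR068W*, fell as well, and its probe set is marked as sharing sequence with other genes. Whether the signal of the flanking genes came from this locus was not tested. The genes of this stretch were picked after their values were seen.

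Replicate 3 differed from replicates 1 and 2 well beyond chromosome V. The difference between replicate 3 and the mean of the other replicates had an SD of 0.481 across all genes, while the difference between replicates 1 and 2 had an SD of 0.136. On replicate 3, 193 genes were over 2-fold higher and 92 over 2-fold lower, whereas 1 gene differed by this much between replicates 1 and 2. Of the 92 lower genes 68 were on chromosome V, and of the 193 higher ones 3. Among genes called up on the other chromosomes, 247 of 315 (78.4%) were higher on replicate 3, and the medians of the 315 on replicates 1, 2 and 3 were 1.44, 1.36 and 1.76. The 286 called down there had medians of -1.30, -1.30 and -1.56. For the 41 called up on chromosome V the order was the reverse, with 1.60, 1.5 and 1.19. Replicate 3 took part in these calls, so the order of the medians is in part set by the choice of genes.

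**Figure D4:**
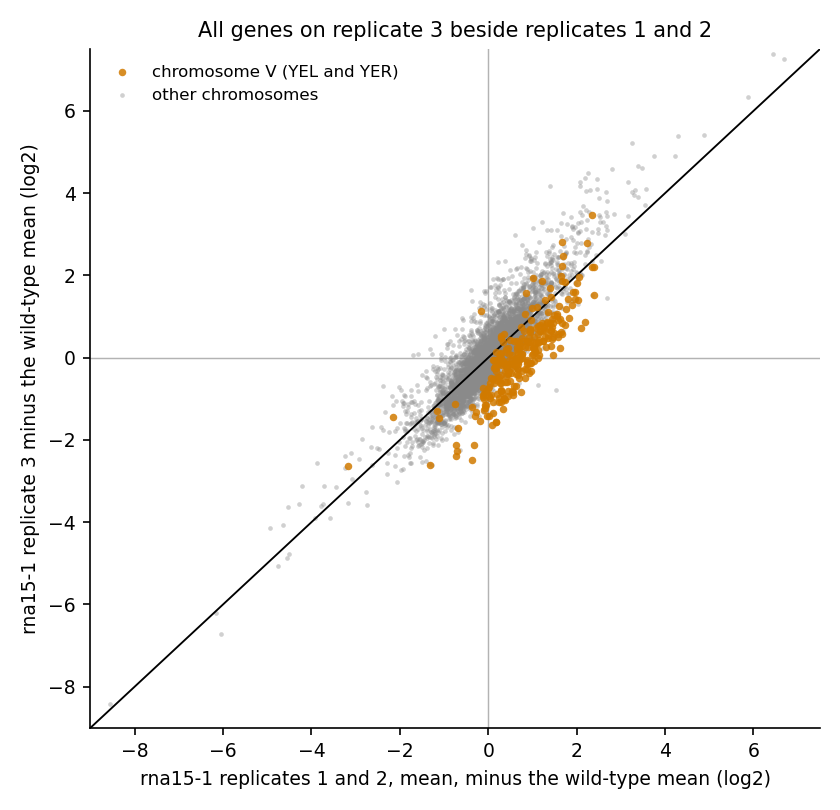
Each gene's difference from the wild-type mean (log2) on *rna15-1* replicate 3 (vertical axis) and on the mean of replicates 1 and 2 (horizontal axis), with chromosome V in orange, other chromosomes in grey and equality as a line. Of the chromosome V genes 234 of 259 (90.3%) lie below the line, against 49.8% of the other genes.

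The 10 genes with the largest excess on replicate 3 over replicates 1 and 2 included genes of stationary phase, stress and sporulation. *SPG4*, needed for survival at high temperature in stationary phase, had 10.52, 10.82 and 12.85 on the *rna15-1* arrays and 8.42, 7.31, 9.12, 9.13 and 8.41 on the wild-type arrays. The hydrophilin gene *GRE1* had 8.66, 8.98 and 10.94, against 8.39, 8.64, 8.62, 8.83 and 8.52. For *PUT1*, the proline oxidase gene, the values were 10.45, 11.05 and 12.78 in *rna15-1* and 11.39, 11.30, 11.00, 11.06 and 10.98 in the wild type. *PUT1* exceeded the wild-type range on replicate 3 only and *GRE1* on replicates 2 and 3, and neither passed the test (adjusted p = 0.062 for *GRE1* and 0.55 for *PUT1*). *HXT5*, a glucose transporter gene of slow growth, *FMO1*, a flavin monooxygenase gene, and *SPO19* were also among these 10, together with *YLR412C-A*, *YDL114W*, *YBR284W* and *YAL037W*, whose roles are less known.
Of the 10 genes that fell short most on replicate 3, 7 were on chromosome V. *PCL1*, a G1 cyclin gene on chromosome XIV, had 11.68, 11.45 and 9.24 in *rna15-1* and 10.10, 10.38, 9.99, 9.91 and 9.79 in the wild type. Replicates 1 and 2 lay above all wild-type arrays and replicate 3 below them, so that the fit gave 0.76 ± 0.44 (adjusted p = 0.15) with all arrays and 1.53 (adjusted p = 9.2e-06) without replicate 3. *YHP1*, a homeobox repressor gene of cell cycle genes on chromosome IV, had 10.74, 10.71 and 8.95, against 9.49, 9.54, 9.65, 9.69 and 9.63, and changed by 1.13 without replicate 3 (adjusted p = 2.0e-06). The histone acetyltransferase gene *HAT2*, the kinetochore gene *SPC25* and *THO1*, a gene of RNA binding, all on chromosome V, lay at 9.01, 8.56 and 8.89 on replicate 3. On replicates 1 and 2 they were at 10.85 and 10.68, 10.40 and 10.21, and 10.58 and 10.62. None of these passed with or without replicate 3, and the sign of each changed when it was left out. The mannosyltransferase gene *MNN1*, also on chromosome V, had 11.59, 11.60 and 9.48, against 11.88, 11.82, 12.14, 11.98 and 11.96. Its log2 fold change was -1.07 ± 0.39 (adjusted p = 0.033) with all arrays, and without replicate 3 it was -0.36 (adjusted p = 0.0029).

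Gene groups are described by their counts, to be read against the 28.2% of all genes that rose and the 24.7% that fell, and against the median log2 fold change of all genes, 0.03. The cleavage factor I genes were measured with all 5 members. *RNA15* itself had 10.94, 10.75 and 10.64 on the *rna15-1* arrays and 9.998, 10.14, 10.03, 10.22 and 10.22 on the wild-type arrays, a change of 0.66 ± 0.08 that does not check the label, since *rna15-1* is not a deletion. *RNA14*, the gene of its partner subunit, rose by 0.80 ± 0.09 and *CLP1* by 0.51 ± 0.08. *PCF11* had 0.07 ± 0.06 (adjusted p = 0.34). *HRP1* had -0.47 ± 0.14 (adjusted p = 0.011), and without replicate 3 it fell by 0.61 (adjusted p = 0.0022). Of the 15 genes of the cleavage and polyadenylation factor 5 rose and 4 fell. The phosphatase gene *GLC7*, on chromosome V, rose by 0.73 ± 0.10, *PTI1* fell by 1.12 ± 0.08 and *CFT2* by 0.87 ± 0.09.
The Nrd1, Nab3 and Sen1 proteins terminate short non-coding transcripts, and the exonuclease Rat1 acts on the RNA left behind by cleavage. *NAB3* fell by 2.04 ± 0.16, with 8.64, 8.57 and 7.82 in *rna15-1*, against 10.18, 10.31, 10.43, 10.52 and 10.47 in the wild type. Of the 6 genes of this group 2 rose, *RAI1* and *RTT103*, and 3 fell, *NAB3*, *SEN1* and *RAT1*. The sixth, *NRD1*, had -0.34 ± 0.13 (adjusted p = 0.045), and without replicate 3 it fell by 0.55 (adjusted p = 1.2e-04).

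**Figure D5:**
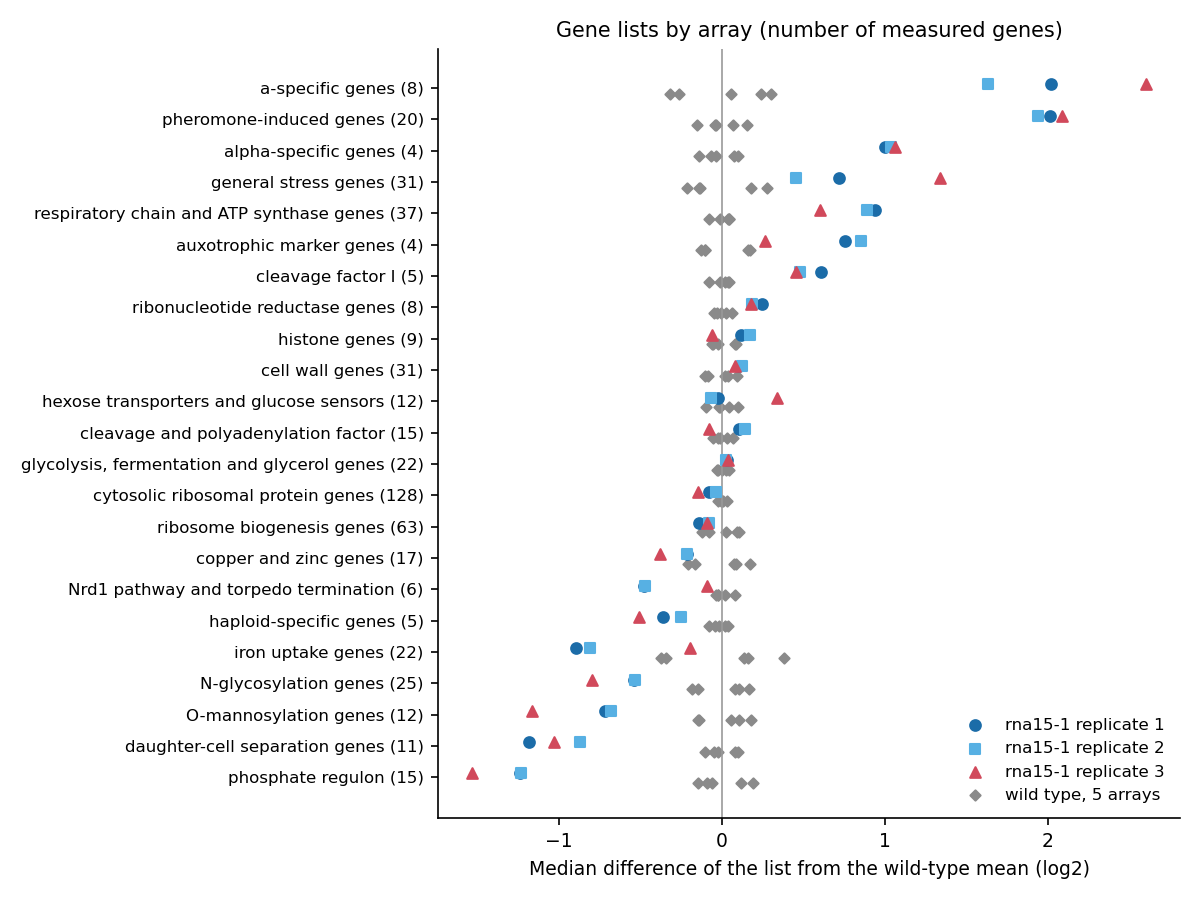
Median difference from the wild-type mean (log2, horizontal axis) over the measured genes of each list (number in brackets) on the 3 *rna15-1* replicates (above each line) and the 5 wild-type arrays (grey, below). The a-specific and pheromone-induced genes lie highest, the phosphate regulon lowest, and the general stress genes differ most between replicate 3 (1.34) and replicate 2 (0.46) after the a-specific genes.

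Of 20 pheromone-induced genes 17 rose, 1 fell and 13 were called up, and their medians on the *rna15-1* arrays were 2.02, 1.94 and 2.09. Gene by gene, 19 of the 20 were higher on replicate 3 than on the mean of replicates 1 and 2, with a median excess of 0.45. *FUS1*, a cell fusion gene in the shifted stretch of chromosome III, had 12.81, 12.77 and 13.21 in *rna15-1* and 10.06, 10.12, 10.34, 10.27 and 9.72 in the wild type. Haploid-specific genes of the same pathway moved less. *GPA1*, the gene of the inhibitory G protein subunit, rose by 0.46 ± 0.10, *STE4*, of the signalling subunit, fell by 0.49 ± 0.06, and *STE5*, of the scaffold, fell by 0.42 ± 0.07. Without replicate 3 *GPA1* had an adjusted p of 0.011.

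Of 31 general stress genes 18 rose, none fell and 10 were called up, with medians of 0.72, 0.46 and 1.34 on replicates 1, 2 and 3. The wild-type arrays had 0.28 and 0.18 on replicates 1 and 2, and -0.14, -0.14 and -0.21 on replicates 3 to 5, so that *rna15-1* replicate 2 was closest to the wild type. On replicate 3, 29 of the 31 were higher than on the mean of the others, with a median excess of 0.56, and without it 15 rose and 9 were called up. *DDR2* had 13.45, 13.30 and 14.16 in *rna15-1* and 10.43, 9.78, 10.36, 10.26 and 9.82 in the wild type. *XBP1*, the gene of a stress-induced repressor, rose by 2.26 ± 0.22, and the membrane-protecting heat shock gene *HSP12* by 2.02 ± 0.24. Of 37 respiratory chain and ATP synthase genes 32 rose, 1 fell and 8 were called up, and the medians were 0.94, 0.89 and 0.60, with 29 genes lower on replicate 3. Without replicate 3, 35 rose and 12 were called up. *SDH2*, a succinate dehydrogenase subunit gene, had 12.55, 12.40 and 12.45 in *rna15-1* and 10.27, 10.38, 10.40, 10.47 and 10.43 in the wild type, and *CYT1*, the cytochrome c1 gene, rose by 1.54 ± 0.15.
Lists of sugar uptake and glycolysis had shares that rose or fell below those of all genes, and most members did not pass the test. Their called shares were above those of all genes (6.53% up and 5.32% down). They were 16.7% up and 16.7% down for hexose transporters and sensors, and 9.09% up and 9.09% down for glycolysis, with 2 genes each. Of 12 hexose transporter and sensor genes 3 rose and 2 fell. The regulator gene *MTH1* rose by 2.46 ± 0.09 and *HXT7*, which has a near-identical neighbour in *HXT6*, by 1.73 ± 0.15, while *HXT1* fell by 3.44 ± 0.26 and the sensor gene *RGT2* by 1.59 ± 0.10. Of 22 genes of glycolysis, fermentation and glycerol synthesis 2 rose, the hexokinase gene *HXK1* (1.86 ± 0.23) and *GLK1* (1.63 ± 0.14), and 4 fell, among them *PFK1* (-1.001 ± 0.08).

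Phosphate acquisition genes were lower as a list, and metal acquisition genes were mixed. Of 15 genes of the phosphate regulon 12 fell, 9 were called down and none rose, with medians of -1.24, -1.23 and -1.53 on the *rna15-1* arrays. *PHO84*, the high-affinity phosphate transporter gene, had 10.80, 10.64 and 10.86 in *rna15-1* and 13.66, 13.62, 13.97, 13.93 and 13.87 in the wild type. The acid phosphatase gene *PHO5* had 7.46, 7.37 and 8.22, against 11.96, 11.86, 12.74, 12.75 and 12.49, and *SPL2*, an inhibitor gene of low-affinity phosphate uptake, fell by 3.91 ± 0.15. Of 22 iron uptake genes 8 fell and 2 rose, and 18 were higher on replicate 3 than on the mean of the others, with medians of -0.90, -0.81 and -0.20. *FRE4*, a ferric reductase gene, had 7.55, 7.58 and 8.28 in *rna15-1* and 11.08, 11.17, 12.54, 12.18 and 12.22 in the wild type. *HMX1*, the heme oxygenase gene, rose by 2.76 ± 0.11. Wild-type replicates 1 and 2 lay below replicates 3 to 5 for these genes, with list medians of -0.37 and -0.35, against 0.14 to 0.38. Of 17 copper and zinc genes 7 fell and 3 rose. The zinc transporter gene *ZRT1* fell by 2.84 ± 0.20 and the copper transporter gene *CTR1* by 2.00 ± 0.14, whereas *ZPS1*, a gene induced at low zinc or high pH, rose by 2.79 ± 0.17.

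Many glycosylation and cell separation genes fell. Of 25 N-glycosylation genes 16 fell and none rose, and of 12 O-mannosylation genes 9 fell and none rose. The medians were -0.54, -0.53 and -0.80 for the first list and -0.71, -0.68 and -1.17 for the second, lowest on replicate 3 in both. *PMT3*, a protein O-mannosyltransferase gene, had 8.80, 8.78 and 8.30 in *rna15-1* and 10.65, 10.73, 10.88, 10.65 and 10.60 in the wild type. *ALG13* and *ALG7*, genes of the first steps of the lipid-linked oligosaccharide, fell by 1.70 ± 0.09 and 1.71 ± 0.27, and *DPM1*, the dolichol phosphate mannose synthase gene, by 1.30 ± 0.07. *ALG7* was less even, at 9.77, 9.85 and 8.47 on the *rna15-1* arrays, and was not called down. Its log2 fold change without replicate 3 was -1.27. Of 11 genes for the separation of daughter cells 8 fell, 6 were called down and none rose. *DSE4*, a glucanase gene expressed in daughter cells, had 9.69, 9.82 and 9.50 in *rna15-1* and 12.22, 12.04, 12.09, 11.87 and 12.07 in the wild type. *PRY3* fell by 3.05 ± 0.14 and *EGT2* by 1.60 ± 0.14. Cell wall genes as a list were mixed, with 7 of 31 that rose and 6 that fell. *GSC2*, an alternative glucan synthase gene, rose by 1.18 ± 0.08, while *KRE5* fell by 1.90 ± 0.12 and the mannoprotein gene *CWP1* by 1.83 ± 0.18.

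Genes of the ribosome had small median changes. Of 128 cytosolic ribosomal protein genes 26 (20.3%) fell and none rose, with a median log2 fold change of -0.09, and 1 gene, *RPS28B* (-1.003 ± 0.13), was called down. Of 63 ribosome biogenesis genes 21 (33.3%) fell and 7 rose. The rising members included *UTP7*, on chromosome V, with 12.62, 12.52 and 11.97 in *rna15-1* and 11.16, 11.29, 11.30, 11.33 and 11.40 in the wild type. *UTP8*, which lies on chromosome VII, fell by 0.97 ± 0.14. Of 9 histone genes 2 rose and none fell. Of 8 ribonucleotide reductase genes and regulators 3 rose and 2 fell, but *RNR3* (0.94 ± 0.27) and *RFX1* (0.42 ± 0.12) no longer passed without replicate 3 (adjusted p = 0.011 and 0.016). *HUG1*, an inhibitor gene of the enzyme, fell by 1.58 ± 0.20.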

How the data were processed

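Affymetrix arrays of 3 strains were used as deposited. The submitters' processing notes name GCOS, RMA and limma without versions. The values that the authors deposited are background-corrected log2 intensities normalised over all 11 arrays. Groups and replicates came from the deposited labels. The R64 gene table held the genes of 5498 of the 10928 probe sets and gave names, chromosomes and gene order only. The brightest probe set stood for each of the 47 genes that had several. Probe sets of 114 genes carry a suffix for shared sequence and were left out when the largest changes were named.

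All 11 arrays were fitted in limma 3.58.1 (R 4.3.3) with 1 coefficient per strain and Benjamini-Hochberg adjustment over 5449 genes, and the procedure was tested on simulated data. A gene above background on no array of a group got a lower bound of its fold change, against the higher of background and signal. The arrays' number limits the precision.

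Named genes were the 15 largest increases and decreases among called genes without overlap between groups. Under the same condition, 8 up and up to 4 down genes of chromosome V were named. Further named genes were *RNA14*, *RNA15*, mating-type genes, up to 4 members per other list, and the 10 highest and lowest on replicate 3. The comparison, members and lists were chosen with earlier results of these data known. Alternatives changed the wild-type arrays, normalisation, filters, probe sets, variance model and replicate block, and left out each array. Promoter sequences were not analysed here.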

Additional observations from a re-analysis of the deposited data

Results flagged for a closer look

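Single distant values were looked for in the wild type, the group of 5 arrays. *THO1* was the only one of 160 such sets of values in which 1 array stood far from the rest. On wild-type replicate 2 it lay at 10.75, and the gap to the next array was 0.801 of the range of the 5 arrays (10.44 to 10.75). Chance alone flags about 1 in 20 groups.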

How the results depend on the processing

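Over all genes, the counts called or passing the adjusted p stayed within 1.5 times their values under every alternative. Up calls ranged between 273 and 461 and down calls between 211 and 334 when the fit, filters or normalisation changed, and leaving out single arrays gave 322 to 366 up, 262 to 298 down, 1359 to 1562 that rose and 1199 to 1327 that fell. With a replicate block, 273 genes were called up, 211 down, 1185 rose and 996 fell. Deviations of same-numbered arrays correlated at 0.09, 0.02 and 0.24, and those of other pairs at -0.23 to 0.12. The highest value was that of the arrays numbered 3. The replicate numbers were not taken as a pairing in the main fit, and these values do not decide whether they are one. Under the block 10 N-glycosylation, 13 ribosome biogenesis and 12 ribosomal protein genes fell, and against wild-type replicates 1 and 2 alone 13 ribosome biogenesis and 14 ribosomal protein genes fell. With a mean-dependent, robust variance 43 ribosomal protein genes fell. The ribonucleotide reductase genes that rose were 1 under the block, without *rna15-1* replicate 3 and when the fit held only *rna15-1* and wild-type arrays.
The chromosome V median log2 fold change of 0.46 lay between 0.35 and 0.68 when single arrays were left out, the highest without *rna15-1* replicate 3. On replicate 3 the median changed sign after quantile normalisation (-0.0070) and among genes with A over 7 (-0.0056). When single arrays were left out, the log2 fold change of *NPP2* lay between -0.071 and 0.75, and that of *HAT2* between -0.74 and 0.18, *SPC25* between -0.74 and 0.18, *THO1* between -0.78 and 0.083 and *PUT1* between -0.40 and 0.77. For *HAT2*, *SPC25*, *THO1* and *PUT1* the sign changed without *rna15-1* replicate 3, and for *NPP2* without replicate 1 (-0.071) or replicate 2 (-0.01) and with the chromosome V median removed (-0.26), an alternative chosen after seeing the data. None of these 5 genes passed the test with all arrays, *NPP2* passed without replicate 3, and the cause was not tested.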
